A study of Mus musculus with 5 samples.

Results

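Stable shared intergenic distal sites are DNase I-hypersensitive sites of naïve CD8+ T cells that lie between genes, away from any annotated transcript start, and that hold a similar rank in wild type (WT) cells and in cells lacking Tcf1 and Lef1 (dKO). Tcf1, encoded by Tcf7, and Lef1 are related HMG-box transcription factors of T cells. The series holds DNase-seq of splenic CD8+ T cells sorted as GFP+ TCRbeta+ CD62Lhi CD44lo-med, from 3 WT and 2 dKO replicates of young adult C57BL/6 mice of both sexes. All mice carried the hCD2-Cre transgene, which acts mainly in mature T cells outside the thymus, and the Rosa26 GFP reporter allele, whose GFP marks cells in which Cre has acted. WT mice carried wild type Tcf7 and Lef1 alleles and dKO mice carried floxed alleles of both genes. Replicates of a genotype were pooled before peaks were called, so that each genotype has a single list, with 31116 peaks in WT and 25525 in dKO. There is therefore no spread between replicates in these lists, no test between genotypes is given, and the intervals below cover counting error only.

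Members were selected on the pileup, the number of sequenced fragments stacked at a peak's summit. An autosomal WT peak was kept if it overlapped a dKO peak by at least 1 bp and its summit lay over 1000 bp from every annotated transcript start and outside every gene body (mm9). Each was paired with the overlapping dKO peak of highest pileup, and the pair was kept if the percentiles of the pileups, each within its own whole list, differed by under 20 points. This gave 4398 members of 31116 WT peaks (14.1%; 95% Wilson interval 13.8 to 14.5%). Of 8696 autosomal WT intergenic distal peaks, 5707 had a dKO partner and 2989 had none. Of the 5707 pairs, 4398 (77.1%) were within 20 points, against 79.1% of all 21235 autosomal shared pairs, 75.6% of genic distal pairs and 82.4% of promoter pairs. Since this contrast chose the members, nothing is read from these shares. The remaining pairs are 828 that ranked higher in WT and 481 that ranked higher in dKO.

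The lists fit the labelled cell type at the promoters of marker genes. All 12 CD8 T cell markers had a WT peak within 1000 bp of a transcript start, with a summed pileup of 960 in WT and 593 in dKO, where 11 of 12 had one and Cd3d, a subunit of the T cell receptor complex, had none. All 8 naïve T cell markers had a WT peak, with a summed pileup of 510 in WT and 249 in dKO, where 6 of 8 had one. These sums are not scaled for depth, which in dKO was 0.742 of that in WT, and a marker without a peak counts as 0. No change at the markers is read from them. Cd28, a costimulatory receptor, was strongest of the CD8 T cell markers, with a pileup of 157 in WT and 100 in dKO, and the homing receptor gene Ccr7 was strongest of the naïve markers, with 115 and 59. None of the 8 B cell markers, Cd79a and Pax5 among them, and none of the 4 CD4 T cell markers, Cd4 among them, had a promoter peak in either list, so that their summed pileup was 0. Myeloid markers had a peak at 2 of 8 genes in WT, Itgam with 36 and Fcgr3 with 40, and at 0 of 8 in dKO, while Csf1r, Lyz2 and Mpo had none. Of the 5 NK cell markers, only Gzma, a granzyme gene, had a peak, in dKO with 27, and Ncr1 and Klrb1c had none. Erythroid markers had 1 WT peak, at Epor with 19. Non-blood markers had peaks at Col1a1, with 30 in WT and 20 in dKO, and at Cdh1, with 20 in dKO. The part of such cells in the lists was not tested. Of the deleted genes, Lef1 had 2 peaks at its starts in each list, the strongest with a pileup of 60 in WT and 37 in dKO, and Tcf7 had none at its starts in either list. Loss of the proteins cannot be read from peak positions and was not checked here.

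DNase I cuts DNA where nucleosomes are displaced, and sites far from promoters are commonly enhancers, silencers or insulators. CTCF is a zinc finger protein that binds a long, well conserved sequence in most cell types and helps to anchor chromatin loops. ETS family factors such as Ets1 and Runx family factors such as Runx1 and Runx3 occupy many T cell enhancers, in which their short binding words often lie near each other. Tcf1 and Lef1 bind a core word through their shared HMG box. A match to any such word is a description of the sequence and does not show that the factor was bound.

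To show what the members look like, the stretch around a motif match was read from the mm9 genome for the strongest members by WT pileup that hold each motif and have no near-identical copy elsewhere in the genome. Every stretch is the plus strand, 5′ to 3′, with 30 bases on each side of the match, which is in capitals. The first 3 hold a match to the CTCF consensus and lie in intergenic sequence at chr13:75935457-75935529, 30 kb from a transcript start of SNORA42, at chr16:50737044-50737116, 4.21 kb upstream of 5330426P16Rik, and at chr8:18954156-18954228, 3.21 kb upstream of Xkr5. Matches on the minus strand of the consensus appear as their reverse complement, as in the first and second.
SNORA42 site: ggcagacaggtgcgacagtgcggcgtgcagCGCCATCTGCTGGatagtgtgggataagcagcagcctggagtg
5330426P16Rik site: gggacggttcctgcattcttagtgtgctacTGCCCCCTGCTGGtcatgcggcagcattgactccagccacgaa
Xkr5 site: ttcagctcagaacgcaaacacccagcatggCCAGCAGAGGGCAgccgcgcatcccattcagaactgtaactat

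In these 3 members the WT summit fell beside the motif. The SNORA42 site had a pileup of 188 in WT and 128 in dKO, the 5330426P16Rik site 176 and 112, and the Xkr5 site 162 and 114. All 3 stood above the 96th percentile of both lists, the lowest of the 6 values being 96.8.

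The ETS core GGAAGT, or ACTTCC on the other strand, is shown in a member at chr3:8246243-8246308, 30.5 kb from the pseudogene Gm7103, in one at chr16:55949108-55949173, 14.2 kb upstream of the centrosomal gene Cep97, and in one at chr3:35592171-35592236, 42.2 kb from a U6 snRNA gene. In the window of the Gm7103 site, 49.7% of the 31-base words also occur elsewhere in the genome. The Runx word TGTGGT, or ACCACA, is shown in the same Cep97 member at chr16:55949189-55949254, in one at chr10:95833541-95833606, 207 kb from the miRNA gene AC131596.1 and 246 kb from the nearest protein-coding gene, Btg1, an antiproliferative gene of resting lymphocytes, and in one at chr8:26384883-26384948, 73.0 kb upstream of Tacc1.
Gm7103 site, ETS: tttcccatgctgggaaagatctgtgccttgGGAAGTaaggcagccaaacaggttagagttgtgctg
Cep97 site, ETS: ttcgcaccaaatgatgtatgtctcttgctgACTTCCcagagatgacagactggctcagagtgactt
U6 site, ETS: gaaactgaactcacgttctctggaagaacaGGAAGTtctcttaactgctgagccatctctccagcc
Cep97 site, Runx: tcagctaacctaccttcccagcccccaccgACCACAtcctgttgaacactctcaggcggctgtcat
Btg1 site, Runx: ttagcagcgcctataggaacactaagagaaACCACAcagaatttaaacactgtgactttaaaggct
Tacc1 site, Runx: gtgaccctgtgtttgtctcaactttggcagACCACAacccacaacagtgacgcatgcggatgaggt

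The Cep97 member holds both words and had a pileup of 209 in WT and 147 in dKO. The Gm7103 site had 217 and 120, the U6 site 198 and 124, the Btg1 site 192 and 122, and the Tacc1 site 187 and 132. All 5 members were near the top of both lists, with percentiles that ranged from 98.9 to 99.6 in WT and from 97.7 to 99.0 in dKO.

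The Tcf/Lef core ATCAAAG, or CTTTGAT, is shown because the factors that bind it are those deleted. That these members held their rank in dKO cells follows from the rule, which 140 of the 420 WT intergenic distal peaks with the core passed. Of all 8696 autosomal WT intergenic distal peaks, 4398 (50.6%; 49.5 to 51.6%) passed the rule. The peaks with the core were not matched to these for pileup. The members shown lie at chr9:24972175-24972241, 15.9 kb upstream of Herpud2, at chr6:122761041-122761107, 8.83 kb upstream of the forkhead gene Foxj2, and at chr2:122579747-122579813, 11.3 kb upstream of Sqrdl, which encodes a mitochondrial sulfide oxidoreductase.
Herpud2 site: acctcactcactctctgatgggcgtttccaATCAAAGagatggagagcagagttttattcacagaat
Foxj2 site: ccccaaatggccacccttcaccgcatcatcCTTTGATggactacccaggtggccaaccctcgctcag
Sqrdl site: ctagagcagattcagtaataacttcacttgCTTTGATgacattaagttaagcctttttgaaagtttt

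The Herpud2 site had a pileup of 167 in WT and 120 in dKO, at the 97.9th and 97.7th percentile. The Foxj2 site had 163 and 122, and the Sqrdl site 155 and 122. The match at the Sqrdl site is within 100 bp of the summit but past the end of the WT peak, while the other printed matches lie inside their WT peaks.

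The members covered nearly the whole range of each list. Their WT pileup had a median of 60, a 10th percentile of 30, a 90th percentile of 112 and extremes of 17 and 7660, and their dKO pileup had a median of 45, with 23 and 81 at the same percentiles and extremes of 14 and 6365. The lists differ in depth, with 83923734 fragments kept in WT and 62242963 in dKO, a ratio of dKO to WT of 0.742, and pileups are not scaled for it. The median ratio of dKO to WT pileup over the members was 0.740, which is 0.998 of the depth ratio. These are the values that chose the members, so the ratio is a description. In the pairs outside the limit the same ratio was 0.648 of the depth ratio for those higher in WT and 1.71 for those higher in dKO. Over the 4267 stable shared genic distal sites the ratio of pileups was 0.743, near the depth ratio like that of the members, over the 8141 stable shared promoter sites 0.671, or 0.905 of the depth ratio, and over all 21235 autosomal shared pairs 0.679, or 0.916. Fold enrichment over the local background, as MACS2 gave it, had a median of 9.02 in WT and 8.97 in dKO. Members were 193 bp wide in the median in WT and 178 bp in dKO.

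**Figure D1:**
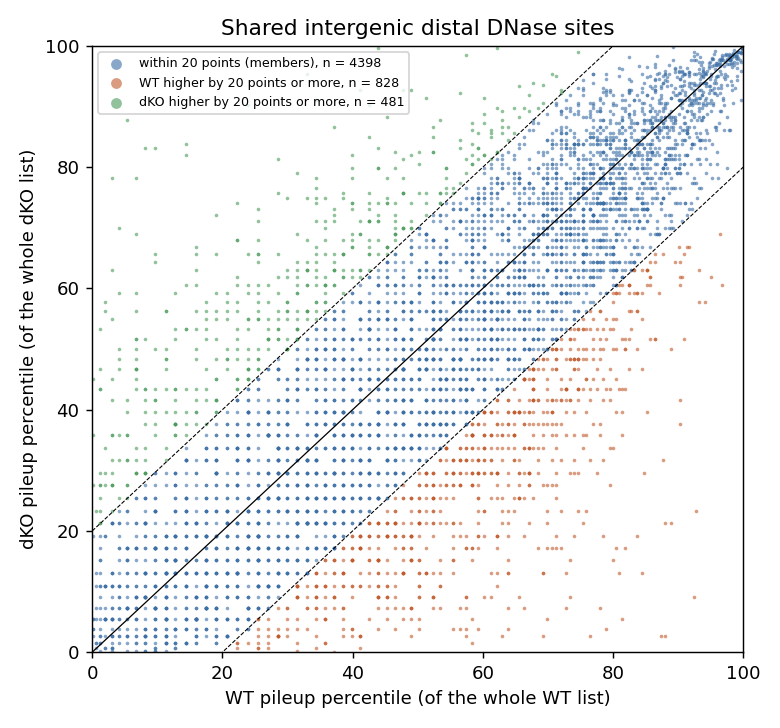
Pileup percentile of each shared autosomal intergenic distal site in the WT list (x axis) and in the dKO list (y axis); each point is a pair of overlapping peaks, the solid line marks equal percentiles and the dashed lines a difference of 20 points. The 4398 members fill the band between the dashed lines by construction, with 828 pairs below and 481 above it.

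Counting error alone is wide on this scale. A pileup of 60 has a 95% Poisson interval of 45.8 to 77.2, which runs from the 39.2nd to the 70.9th percentile of the WT list, and a dKO pileup of 45 has an interval of 32.8 to 60.2, which runs from the 32.7th to the 73.5th percentile of the dKO list. A difference of 20 points near the middle of the lists is thus within counting error. The pairs next to the limit are given as examples and were picked for their closeness to it. Just inside it, members near Gm16084 and Gm7697 (the last with 100% of its words repeated elsewhere in the genome) both had pileups of 35 in WT and 18 in dKO, a member near Ankrd1 had 73 and 81, and one near Lefty2 had 38 and 41. Just outside it, pairs near 7SK and Irf2bp2 had 36 in WT and 19 in dKO, a pair near Gm4832 had 23 and 29, and one near Kap had 39 and 42. That the pairs just inside and just outside the limit had like pileups follows from this choice, and nothing is read from it.

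Within the members, 2755 differed by under 10 points and 1566 by under 5 points. Once divided by the depth ratio, the dKO to WT ratio of the pileups ran from 0.795 at the 10th percentile to 1.31 at the 90th. It was 1.5 or more in 57 members and 1.5-fold or more lower in 29. Near the top of the lists a small difference in percentile can hide a larger one in pileup. The extremes, which were picked after their values were seen, were a member 15.5 kb from Gm20452, with 117 fragments in WT and 353 in dKO (a scaled ratio of 4.07) at the 89.3rd and 99.8th percentile, and one 4.36 kb from Gm11668, with 223 and 88 (0.532). In the first, 100% of the 31-base words around the summit occur elsewhere in the genome.

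Each of the 10 strongest members holds repeated sequence, which is given here before the results that could rest on it. Words of 31 bases that occur more than once in the genome were found in the windows of 654 members, and made up 50% or more of the window in 104 (2.36%; 1.96 to 2.86%), against 2.07% of all autosomal WT peaks. A member at chr12:3109870-3110118 had the highest pileup, 7660 in WT and 6365 in dKO, with 87.1% of its words repeated and 159 near-identical copies (at least 90% identity over 80% of the window). One at chr9:35112803-35113173 had 5888 and 4835 with 148 copies, and one at chr2:98505188-98505369 had 5396 and 4517 with 5 copies. All 3 stood at the top of both lists by pileup. By fold enrichment the last of them, with 7.35 in WT and 7.23 in dKO, was at the 44.8th and 39.9th percentile.

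Another 3 of the 10 strongest lie together 24.9 to 26.1 kb from Ly6c2, which encodes a surface antigen of memory CD8+ T cells and monocytes. Their pileups were 1040, 473 and 402 in WT and 483, 274 and 241 in dKO, and 36.3 to 77.8% of their words were repeated. A pair on chromosome 17 lies 1.05 and 5.51 kb from AY036118, with 739 and 714 in WT and 349 and 312 in dKO. Both were broad in WT, 1359 and 3814 bp, and narrower in dKO, 562 and 498 bp, with a fold enrichment under 4 in both lists. In the broader one the WT and dKO summits were 3313 bp apart. The last 2 of the 10 are a member 284 kb from Pxmp3, with 503 in WT and 239 in dKO, and one 258 kb from 4930546C10Rik, with 348 and 159. Over the 10, the share of repeated words ran from 7.02 to 87.1%. Chosen after these values were seen, the 5 strongest members with no repeated word had 192 to 222 fragments in WT and 122 to 147 in dKO, led by a site 6.33 kb upstream of Trappc9 with 222 and 139.

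**Figure D2:**
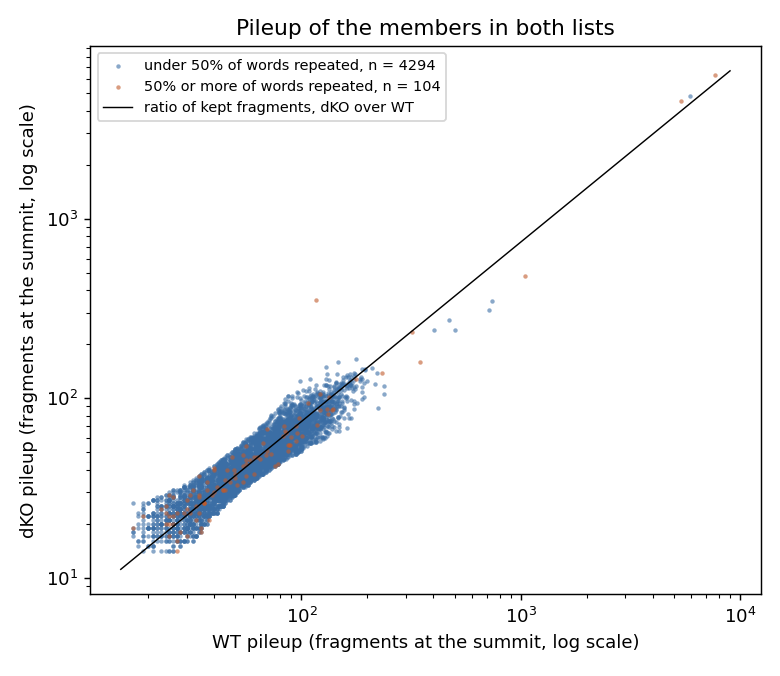
WT pileup (x axis) and dKO pileup (y axis) of the 4398 members on log scales; orange points are the 104 members in which 50% or more of the 31-base words around the summit occur elsewhere in the genome, and the line is the ratio of kept fragments, 0.742. The members have a median ratio of 0.740, a description since these values chose them, and the 4 with over 1000 fragments in WT all hold repeated words.

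The rule used the position of the WT summit relative to genes and the overlap of the peaks, but not the distance between the WT and the dKO summit. The median of this distance was 10 bp, and 2332 members (53.0%; 51.5 to 54.5%) had summits at most 10 bp apart. In 499 members (11.3%) they were over 50 bp apart and in 203 (4.62%) over 100 bp. The same median was 11 bp in the pairs that ranked higher in WT and 12 bp in those that ranked higher in dKO, and 10 bp in the stable shared genic distal and the stable shared promoter sites, as in the members. Of the members, 27 overlapped more than 1 dKO peak and 14 shared a dKO partner with another member.

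Of the 14 motifs searched, CTCF differed most, as a ratio of shares, between the members and the sequence beside them. As a difference of shares, the ETS word (26.1% against 11.9%) and the Runx word (26.7% against 15.1%) differed more. The ranking thus depends on the measure, and the CTCF consensus is longer than the other words. The consensus was found within 100 bp of the WT summit in 508 members (11.6%; 10.6 to 12.5%), against 0.159% (0.0948 to 0.267%) of windows of the same length 1000 bp to each side of them. It was found in 6.18% of all autosomal WT peaks, 9.02% of stable shared genic distal sites and 1.72% of stable shared promoter sites. Among the shared intergenic pairs outside the limit, it was found in 9.06% (7.29 to 11.2%) of those higher in WT and in 3.95% (2.54 to 6.09%) of those higher in dKO. The groups also differ in level, with a median WT percentile of 56.4 in the members, 60.2 in the pairs higher in WT and 30 in the pairs higher in dKO. Among sites between the 25th and 50th WT percentile, the CTCF share was 8.66% (7.13 to 10.5%) in members, 5.6% (3.30 to 9.35%) in pairs higher in WT and 6.80% (4.09 to 11.1%) in pairs higher in dKO, and the intervals overlapped. Between the 50th and 75th percentile it was 15.8% (13.9 to 17.8%) in members, 10.7% (8.13 to 13.9%) in pairs higher in WT and 4.0% (3 of 75 pairs; 1.37 to 11.1%) in pairs higher in dKO.

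The CTCF match sat at the summit. The centre of the nearest match was a median of 9 bp from the WT summit, and 90.7% of matches were within 20 bp. Members with a CTCF match were narrower, with a median width of 150 bp in WT against 199 bp in the others, and their summits moved less between the lists, by a median of 7 bp (95% interval 7 to 8) against 10 bp (10 to 11). Their pileup was higher, with a median of 70 in WT and 50 in dKO against 59 and 44 in the others. The median WT percentile was 65.5 (63.0 to 68.5) with a match and 55.4 (53.4 to 56.4) without. The CTCF share rose from 4.48% of members in the lowest 25% of the WT list to 15.9% between the 75th and 90th percentile, and was 8.85% (6.27 to 12.4%) in the top 10%.

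**Figure D3:**
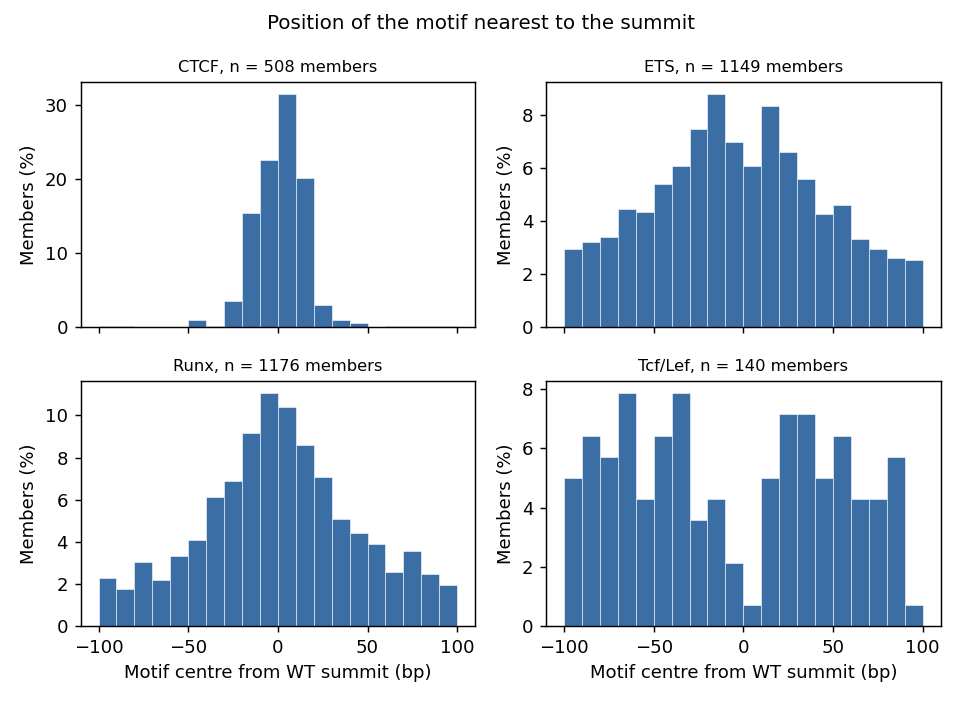
Position of the match nearest to the WT summit in bp (x axis) as a share of the members that hold the motif (y axis), in bins of 10 bp, for CTCF, ETS, Runx and Tcf/Lef. The CTCF matches crowd within 20 bp of the summit (90.7%), the ETS and Runx matches are spread around it, and 2.86% of the 140 Tcf/Lef matches are within 10 bp of it.

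ETS and Runx words were the most common of the T cell motifs in the members. GGAAGT was present in 1149 (26.1%; 24.8 to 27.4%) and TGTGGT in 1176 (26.7%; 25.5 to 28.1%), against 11.9% and 15.1% of the windows 1000 bp away. All autosomal WT peaks held them in 25.9% (25.4 to 26.4%) and 21.9% (21.5 to 22.4%), so that the ETS share in members was that of any peak. The ETS share was 29.2% (27.9 to 30.6%) in stable shared genic distal sites and 26.9% (26.0 to 27.9%) in stable shared promoter sites. It was similar in the pairs higher in WT (28.9%; 25.9 to 32.0%) and in those higher in dKO (28.1%; 24.2 to 32.2%). The Runx share was 26.9% (24.0 to 30.1%) in pairs higher in WT, and 44.7% (40.3 to 49.2%) in pairs higher in dKO. This held within levels, with 29.6% (26.9 to 32.3%) of members and 44.2% (37.6 to 51.0%) of pairs higher in dKO between the 25th and 50th WT percentile. In stable shared promoter sites the Runx share was 10.3% and in stable shared genic distal sites 32.3%.

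Runx matches lay closer to the summit than ETS matches, at a median of 27.5 and 34.5 bp. Of the 1149 members with the ETS word, 324 also held the Runx word (28.2%; 25.7 to 30.9%), close to its share in all members. CTCF members held either word less often, the ETS word in 15.2% (12.3 to 18.5%) and the Runx word in 11.8% (9.29 to 14.9%). The ETS share fell with level, from 31% (27.8 to 34.3%) of members in the lowest 25% of the WT list to 22.1% (18.0 to 26.8%) in the top 10%. The Runx share was 31.6% (28.4 to 35.0%) and 24.8% (20.5 to 29.6%) in the same classes, with intervals that overlapped. Between them it was 24% (21.8 to 26.3%) from the 50th to the 75th percentile and 23.9% (21.2 to 26.9%) from the 75th to the 90th, both below the interval of the lowest class. Members with the ETS word had a median WT percentile of 52.4 (49.0 to 54.4) and those with the Runx word 51.3 (49.0 to 54.4). None of the CTCF, ETS and Runx words was found in 2014 members (45.8%), which says only that these letters are not in the window.

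**Figure D4:**
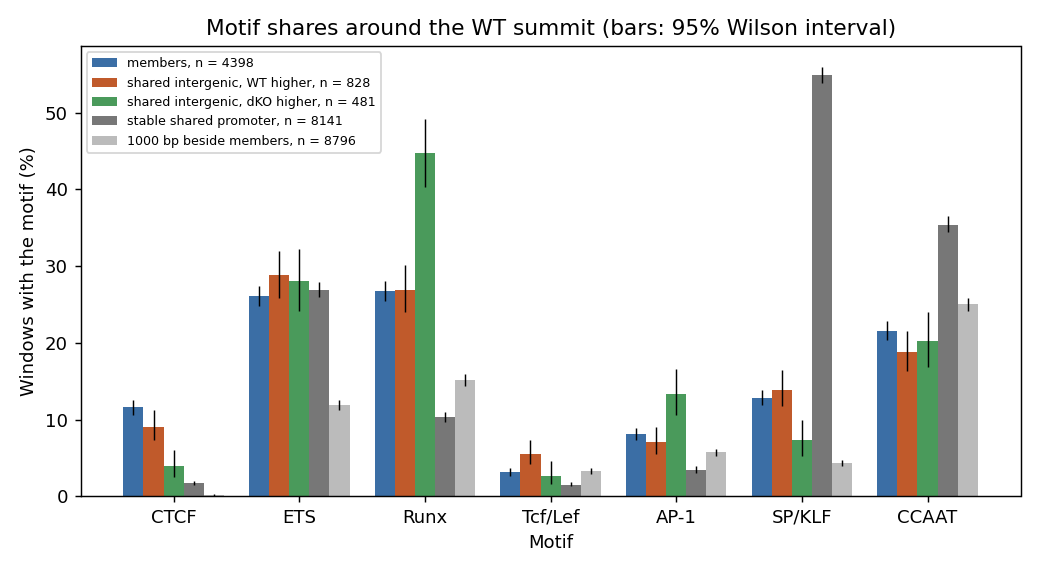
Share of windows of 100 bp to each side of the WT summit that hold each motif (y axis, percent), for the members, the shared intergenic pairs that ranked higher in WT or in dKO, the stable shared promoter sites and the windows 1000 bp beside the members; lines are 95% Wilson intervals. CTCF is found in 11.6% of members and 0.159% of the windows beside them, Runx is highest in the pairs higher in dKO (44.7%), and SP/KLF is highest in promoters (54.9%).

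The Tcf/Lef core was found in 140 members (3.18%; 2.70 to 3.74%). Windows 1000 bp away held it as often, in 3.24% (2.89 to 3.63%), and all autosomal WT peaks in 3.91% (3.70 to 4.13%). The median GC content was 49.8% in members, 45.8% in the windows 1000 bp away and 52.7% in all autosomal WT peaks. The shares were not matched for it. The rule keeps only sites with a dKO partner, and of the 420 WT intergenic distal peaks with the core 199 had one (47.4%; 42.7 to 52.2%), against 65.6% (64.6 to 66.6%) of all such peaks and 65.8 to 73.2% of those with CTCF, ETS, Runx, AP-1, E-box, GATA, SP/KLF or CCAAT words. The share of the core in members is therefore a share among sites found in both lists. Among all WT intergenic distal peaks, having a partner rose with level, from 29.7% in the lowest 10% of the WT list to 98.9% in the top 10%. The 420 peaks with the core were not matched to the others for level. The share of the core was 5.56% (4.19 to 7.33%) in pairs higher in WT and 2.70% (1.59 to 4.57%) in pairs higher in dKO. Between the 25th and 50th WT percentile the share was 2.95% (2.09 to 4.13%) in members and 5.6% (3.30 to 9.35%) in pairs higher in WT. Between the 50th and 75th it was 3.46% (2.61 to 4.57%) and 4.32% (2.78 to 6.65%), and the intervals overlapped in both classes. Above the 75th percentile the share in pairs higher in WT was not compared, so nothing is said of the difference there. The matches in members were not centred, with a median of 50.5 bp from the summit and 2.86% within 10 bp, against 56.9% for CTCF. Members with the core had a median pileup of 62.5 in WT and 44.0 in dKO, against 60 and 45 without it.

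Members with the Tcf/Lef core in the top 10% of the WT list numbered 15. Besides the sites near Herpud2, Foxj2 and Sqrdl, they included a site 18.1 kb from Btg2, an antiproliferative gene, with 121 fragments in WT and 79 in dKO, and one 32.3 kb upstream of Pag1, an adaptor that restrains T cell receptor signalling, with 129 and 79. A site 39.1 kb upstream of Plcl2 had 120 and 83, and one 55.6 kb from the lincRNA Gm9530 had 147 and 78. Sites near Poli (144 and 121) and SNORA17 (123 and 96) held a CTCF match as well. Sites near 4930553M12Rik, Vmn1r238 (with 1 near-identical copy) and Plcxd1 had 145, 141 and 124 in WT and 137, 117 and 92 in dKO. Sites near Gm10123, Slc25a17 and Dennd2d had 150, 136 and 130 in WT and 80, 87 and 65 in dKO. The site near Dennd2d differed most in percentile among the 15, by 15.3 points, and the others by under 10 points.

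The other words are given beside the windows 1000 bp away and all autosomal WT peaks, again without matching for GC content. The AP-1 word TGANTCA was found in 8.07% of members, 5.71% of the windows beside them and 6.24% of all peaks, and in 13.3% (10.6 to 16.6%) of pairs higher in dKO. The E-box CAGCTG was found in 14.0%, against 9.06% beside them and 12.7% of all peaks. The GATA word AGATAA was found in 8.30% (7.52 to 9.15%) of members, below the 10.4% (9.78 to 11.1%) beside them and above the 6.17% (5.90 to 6.44%) of all peaks, and in 12.3% (9.63 to 15.5%) of pairs higher in dKO. The CCAAT box was found in 21.6% of members, 25% of the windows beside them and 24% of all peaks. The Fox word TGTTTAC was found in 3.73% of members, 2.81% of the windows beside them and 2.83% of all peaks. The longer ETS form CCGGAAGT, which contains GGAAGT, was found in 1.57%, the CRE TGACGTCA in 1.18%, the NRF1 word GCATGCGC in 1.07% and the YY1 word AAGATGGC in 1.68%. In the windows beside the members these 4 were found in 0.375%, 0.148%, 0.443% and 1.60%. In stable shared promoter sites they were found in 8.21%, 4.15%, 5.88% and 4.53%, and in all peaks in 3.53%, 1.90%, 2.48% and 2.41%.

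A minority of members resembled promoters in their sequence. The SP/KLF word GGGCGG was found in 564 (12.8%), against 54.9% of stable shared promoter sites, 27.4% of all autosomal WT peaks and 4.31% of the windows beside the members. Windows with over 50% GC and a CpG ratio, observed over expected, above 0.6 made up 471 members (10.7%; 9.83 to 11.7%), 73.6% of stable shared promoter sites, 4.85% of stable shared genic distal sites, 32.2% of all autosomal WT peaks and 2.1% of the windows beside the members. They made up 13.0% (10.9 to 15.5%) of pairs higher in WT and 1.66% (0.845 to 3.25%) of pairs higher in dKO. CpG-rich members were stronger, with a median pileup of 78 in WT and 52 in dKO against 59 and 44 in the others, and nearer to transcript starts, at a median of 10173 bp against 16070 bp. Their share was 6.46% in the lowest 25% of the WT list and 30.1% (25.5 to 35.2%) in the top 10%. Of all members, 128 (2.91%) had the 41 bases around the summit within a promoter sequence of RefSeq (GRCm38.p6, matched by sequence), 53 of them CpG-rich.

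**Figure D5:**
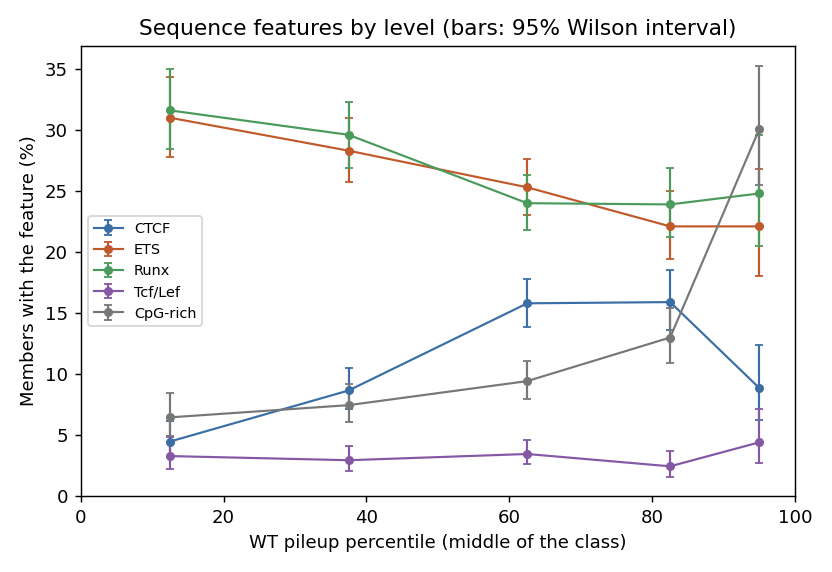
Share of members that hold each feature (y axis, percent) by class of WT pileup percentile (x axis, plotted at the middle of the classes 0 to 25, 25 to 50, 50 to 75, 75 to 90 and 90 to 100); bars are 95% Wilson intervals. The CpG-rich share is 30.1% in the top class, the CTCF share is highest between the 50th and 90th percentile, and the ETS and Runx shares are highest in the lowest class.

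Members lay a median of 15448 bp from the nearest transcript start, and the rule sets the lower end of this distance. Of them, 844 (19.2%) were within 5000 bp, 1737 (39.5%) between 5000 and 20000 bp, 1099 (25%) between 20000 and 50000 bp, 456 (10.4%) between 50000 and 100000 bp, and 262 (5.96%) farther. They were upstream of the nearest start in 62.9% (61.4 to 64.3%), close to the 62.4% (61.3 to 63.4%) of all 8696 autosomal WT intergenic distal peaks. The CTCF share fell with distance, from 12.6% (10.5 to 15%) of members within 5000 bp to 5.73% (3.50 to 9.23%) beyond 100000 bp, and the Runx share rose from 23.9% (21.2 to 26.9%) to 33.6% (28.1 to 39.5%). The 3 most remote members were near Gm2228 (615 kb; 41 fragments in WT and 40 in dKO), a Y_RNA gene (570 kb; 42 and 33) and CT009748.1 (509 kb; 55 and 37).

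Members joined when their summits lay within 10000 bp of each other formed 3548 groups, of which 2935 were single members and 613 held 2 or more. There were 54 groups of 4 or more. The largest held 7 members each. One spans chr16:91522814-91546037 at Ifngr2, a subunit of the interferon gamma receptor, with 30 to 151 fragments in WT and 19 to 91 in dKO. The other spans chr5:106066061-106083948 near Lrrc8d, a volume-regulated anion channel subunit, with 27 to 122 and 29 to 90. Groups of 6 members were found 152223 to 170423 bp from the starts of Tnfaip3, an inhibitor of NF-kB signalling, and Olig3, at Abt1 and Btn1a1, beside the histone gene Hist1h4h, and at 9230019H11Rik. In the last of these all 6 members were in repeated sequence. None of these 6 groups held a CTCF match.

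Members were assigned to listed genes by the nearest transcript start, which does not show that a site acts on that gene. Over all protein-coding genes, 2198 of 22238 gene names (9.88%; 9.50 to 10.3%) had at least 1 member. Members made up 77.1% of all shared intergenic pairs, and since the contrast between the lists chose them, nothing is read from their share in a gene list. Of 28 T lineage transcription factor genes, 16 had at least 1 member, with 50 members in all among 60 shared intergenic pairs (83.3%). Ets1 had 15, the most of any protein-coding gene in all members, spread from 15.5 to 400 kb from its starts, with a median pileup of 79 in WT and 57 in dKO. Its strongest member had 120 and 91. Tcf7, itself deleted in dKO mice, had 4 members 16.7 to 35.5 kb from its starts, the strongest with 115 and 67, and Lef1 had 1, with 42 and 34. The early response gene Egr1 had 4, the strongest with 129 and 93. Nfatc3, a calcium-regulated factor, had 1 with 95 and 66, and Ets2 had 3, the strongest with 94 and 73. Lef1, Id2 and Satb1 are named after their values were seen. Id2, an inhibitor of E proteins, had 7 mostly weak members with medians of 28 in WT and 25 in dKO. Satb1, a chromatin organizer of T cells, had 4, with 38 to 69 in WT and 29 to 69 in dKO.

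Of 20 genes for naïve homing and survival, 13 had members, 35 in all of 52 shared intergenic pairs (67.3%). S1pr1, the receptor that guides T cells out of lymphoid organs, had 6, with 45 to 141 fragments in WT and 36 to 100 in dKO. Btg1 had 9, with medians of 88 and 53. Cxcr4, a chemokine receptor gene, had 2, of which the stronger had 146 and 91. Il7r, the receptor chain for the survival cytokine IL-7, had 2, the stronger with 111 and 94, and Btg2 had 4. Of 20 T cell receptor and coreceptor genes, 8 had members, 15 in all of 24 pairs (62.5%). Lck, the kinase bound to CD4 and CD8, had 1 at 1.76 kb with 132 and 75. Cd2 had 3, the strongest with 128 and 88, Ptprc had 2, the stronger with 91 and 58, and Thy1 had 2, the stronger with 80 and 57. Cd8a had 3, with 42 to 89 in WT and 25 to 55 in dKO.

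Effector genes had members as well. Of 25 genes, 10 had members, 24 in all of 35 pairs (68.6%). Pdcd1, the inhibitory receptor PD-1, had 1 at 26.8 kb upstream with 138 fragments in WT and 97 in dKO. Fasl, the ligand of a death receptor, had 6, the strongest with 129 and 119. Socs1, an inhibitor of cytokine signalling, had 2, the stronger with 136 and 86. Prdm1, which encodes Blimp-1, had 2, with 112 and 68 at 1.06 kb and 64 and 49 at the other. Gzmb, a granzyme gene, had 3, the strongest with 108 and 93.

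Of 15 B lineage genes, Bcl6, which is also expressed in T cells, was the only one with members. It had 2 of the list's 5 shared intergenic pairs (40%), the stronger with 104 and 78, and the list had 11 WT intergenic sites. Of 16 myeloid genes, 3 had 1 member each, 3 in all of 4 pairs (75%), among them Fcgr3 with 76 and 48 and Spi1 (named Sfpi1 in the annotation) with 34 and 33. The myeloid list had 8 WT intergenic sites in all.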

How the data were processed

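DNase-seq libraries of 3 WT and 2 dKO replicates were analysed from 2 deposited peak lists, one per genotype. Per the labels and the methods of the study, the authors aligned reads to mm9 with Bowtie2 2.2.5, kept uniquely mapped reads, pooled the replicates and called peaks with MACS2 (2.1.1.20160309 per the file headers) without a control. The file headers name 2 BAM files per genotype, whose names differ by a sorting suffix, and 50.0% of fragments (of 167847468 in WT and 124485926 in dKO) were removed as duplicates. Whether the 2 files hold the same reads was not checked, since they were not used here. The 50.0% is therefore not read as the rate of duplicates in a library. The pileup deposited by the authors is a signal or coverage value, whole fragments not scaled for depth. Fold enrichment, a ratio, was deposited as MACS2 gave it, with the local background taken from the same pool because no control was used. The deposited −log10 p and q are MACS2 tests of the summit against that background. The headers say that q was not calculated, but its column holds values, which were used as deposited. Peak width and the summit were used as deposited.

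From these, overlaps, percentiles and distances were computed with Python 3.11.15, pandas 2.3.3, numpy 2.4.6 and pysam 0.24.0, with GENCODE vM1 (37310 genes) and the NCBIM37 genome (mm9). Percentiles are average ranks within a list. 14 motifs were searched on both strands within 100 bp of the WT summit. CTCF was searched as an ambiguous consensus and the others as exact words, in which the N of the AP-1 word is any base. Repeated words have 31 bases, and near-identical copies were found with blastn 2.17.0 (at least 90% identity over 80% of the window) for named members, with the limit of 50% repeated words chosen after seeing the data. RefSeq promoter sequences (32851, GRCm38.p6) were matched by sequence alone. Gene bodies and starts of every annotated gene, small RNAs and pseudogenes included, were used. Intervals of shares are 95% Wilson (scipy 1.17.1), and those of medians are binomial order statistics. Steps were tested on simulated data. No test between genotypes was made. Alternatives covered the limit, distance, overlap, percentile, annotation, window and partner, and the peak criteria of the study (fold of at least 4, p under 1e-05, q under 0.05). Members and gene lists were chosen with earlier results of these data known. Named members are the 10 strongest; for each gene list up to 5 genes with the strongest members; up to 3 members per motif printed; 2 pairs on each side of the limit in each direction; the groups with most neighbours, ties included; the 3 farthest from a start; and members with the Tcf/Lef core in the top 10% of the WT list.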

Additional observations from a re-analysis of the deposited data

How the results depend on the processing

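The number of members, 4398, stayed within 1.5 times under 11 of the 12 alternatives, from 3554 with starts over 5000 bp away to 5159 under 30 points, and was 2755 under 10 points, which follows from the narrower limit. With percentiles of fold enrichment it was 4397, of which 4111 are the same sites. With a window of 50 bp on each side, the share with a motif was lower, as a shorter window holds fewer words: 1.48% for the Tcf/Lef core, 16.6% for ETS, 1.14% for its long form, 18.9% for Runx, 4.23% for AP-1, 8.05% for the E-box, 3.12% for GATA, 1.48% for Fox, 8.46% for SP/KLF, 11.3% for CCAAT, 0.728% for NRF1 and 1.05% for YY1. The CTCF share was 11.3% with that window, within its interval, and 12.7% without members that hold repeated words, for which the cause was not tested. With only protein-coding genes there were 4952 members, and the median distance to a start was 20244 bp, as fewer starts were counted. Of 112 values under the alternatives, 97 stayed within the interval of the reported value or, for counts, within 1.5 times, and the other 15 are those given here. The alternative without members in which 50% or more of the words are repeated (4294 left) was chosen after seeing the data, as was leaving out repeated words for the Tcf/Lef core (3.21%), and none of its values left those limits. No paired analysis was possible because each list is a pool of its replicates. Leaving out a replicate was not possible for the same reason. Depth limits the percentiles as given for a pileup of 60, and the dKO list is the shallower.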

Other observations

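Chromosome X, outside the rule, held 95 shared intergenic distal pairs by the same steps, of which 73 (76.8%) were within 20 points, 14 ranked higher in WT and 8 in dKO. Members per Mb ranged from 1.27 on chromosome 14 to 2.52 on chromosome 10. They were 159 of 316 WT intergenic distal peaks on chromosome 14 and 327 of 638 on chromosome 10. Over all autosomes they were 4398 of 8696 (50.6%), so nothing particular to the members is read from the range. After Ets1, the protein-coding gene with most members was Tnfaip3, with 10 that had 22 to 163 fragments in WT and 25 to 131 in dKO, followed by Arl4c and Btg1 with 9 each. These genes were chosen after their counts were seen.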
